A study of Mus musculus with 4 samples.

Results

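The small leucine-rich proteoglycans are secreted matrix proteins built around a curved run of leucine-rich repeats, most of which carry sulfated sugar chains. They bind collagen fibrils and set their width and spacing, and they also hold growth factors such as TGF-beta near the cell. In the artery wall they are known as products of fibroblasts and smooth muscle cells, and several accumulate in atherosclerotic plaque. The 8 members described here, Lum, Dcn, Bgn, Ogn, Fmod, Prelp, Aspn and Podn, were taken by symbol from the gene list of the count matrices, which holds 32285 genes, and each symbol matched 1 row. All 8 were found in all 4 libraries.

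The data were single-nucleus RNA counts from mouse aorta, with 1 library in each of 4 groups. Every group carried the same genotype, a CA1 knock-in (carbonic anhydrase 1) on the ApoE-/- background, which is prone to atherosclerosis. The untreated group received no treatment, its food not being named, and the other 3 were fed high-fat food. Of these, high_fat received the food alone, MTZ_after received methoxazolamide (MTZ), named as in the labels, once atherosclerosis was established, and MTZ_simultaneous received it together with the food. The ages and sexes of the mice, the number of animals per library and the promoter driving the knock-in are not given in the sources used here. Both MTZ libraries are compared with the single high_fat library, so those comparisons share it and are given side by side. With 1 library per group no difference has a replicate check. All intervals below are exact 95% intervals for counting error only, and no p-value was computed.

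After filtering, 20771, 35110, 26000 and 17849 nuclei were kept in untreated, high_fat, MTZ_after and MTZ_simultaneous, in that order, which is used throughout. The median depth ranged from 827 to 2026 unique molecular identifiers (UMIs, 1 per captured RNA molecule) per deposited nucleus, highest in untreated. Between 119 and 376 nucleus barcodes were shared by each pair of libraries, 0.615% to 1.34% of the smaller one. The libraries differed in tissue content. Most adrenal cortex-like, hepatocyte-like and neuron-like nuclei came from MTZ_after, 6656 of the untreated nuclei were brown adipocyte-like against 213 in high_fat, and mesothelial-like nuclei numbered 1237, 69, 547 and 2819. Smooth muscle-like nuclei, the class that defines the aortic media, numbered 588, 626, 2476 and 1805 and had all 9 of their markers detected in every library. Levels over all nuclei therefore mix classes in different proportions, and most values below are given within a class.

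Clustering without the member genes gave 24 clusters. The fibroblast-like class was 1 cluster of 2206, 1097, 1914 and 1747 nuclei, 10.6%, 3.12%, 7.36% and 9.79% of each library. It was enriched for 10 of 11 fibroblast markers, among them Pdgfra, Scara5 and Pi16. A separate cluster was led by Cemip, Grin2a, Tnfrsf11b, Tnc and Col1a1, and is called the Cemip-led cluster here. It was enriched for 4 of the 11 fibroblast markers (Pdgfra, Col1a1, Col1a2 and Col3a1), where a class name needed at least 3. It took no class name because its mean log2 fold over the 11 markers was 0.42, below the threshold of 0.5. It held 122, 2131, 263 and 332 nuclei, 0.587%, 6.07%, 1.01% and 1.86% of each library. The threshold that kept it out of the fibroblast-like class was set after its values were seen, so results with it counted in are given as well. A further group of nuclei, cluster 0, had no class name and made up 32.8% of high_fat, with Lum, Spp1 and Mmp12 among its leading genes. Its median depth, 779 UMIs, was the lowest of the 24 clusters. With finer clustering (Leiden resolution 2), 6588 of its 12971 nuclei fell in a macrophage-like cluster enriched for C1qa, C1qb, Msr1, Ms4a7 and Mpeg1.

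The genes lie in small groups on the genome (mm10, GENCODE M21 gene models). Dcn (chr10:97479609-97518143) and Lum (chr10:97565128-97572703) are neighbours on the plus strand, 47.0 kb apart. Aspn (chr13:49544443-49567565) and Ogn (chr13:49608046-49624501), also on the plus strand, flank Omd, a further family gene, and both lie inside the span of Cenpp on the other strand. Prelp (chr1:133910304-133921414, minus strand) and Fmod (chr1:134037254-134048277, plus strand) are 116 kb apart. Bgn (chrX:73483602-73495933, plus strand) and Podn (chr4:108014791-108096445, minus strand) stand alone among the members. Podn overlaps Scp2 on the same strand, so its counts are uncertain, as are those of Prelp where its antisense gene Gm15851 overlaps it.

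The windows upstream of the start sites of 4 members are shown because these genes form 2 of the neighbouring groups described above. The sequences are the 250 bases before each start site in RefSeq (GRCm38.p6), given 5′ to 3′ on the gene's own strand, and capitals mark matches, on either strand, to a searched motif.
Aspn (chr13:49544193-49544442, plus strand): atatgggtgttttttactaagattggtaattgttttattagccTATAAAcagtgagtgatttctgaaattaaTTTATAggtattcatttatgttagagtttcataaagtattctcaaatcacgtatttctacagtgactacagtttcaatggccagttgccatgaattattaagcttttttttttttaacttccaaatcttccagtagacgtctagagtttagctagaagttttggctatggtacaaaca
Ogn (chr13:49607765-49608014, plus strand): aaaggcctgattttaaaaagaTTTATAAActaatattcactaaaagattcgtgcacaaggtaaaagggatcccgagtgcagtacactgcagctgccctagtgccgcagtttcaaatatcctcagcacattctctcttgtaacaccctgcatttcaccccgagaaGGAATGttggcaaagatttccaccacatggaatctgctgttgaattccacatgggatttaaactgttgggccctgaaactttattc
Prelp (chr1:133921402-133921651, minus strand): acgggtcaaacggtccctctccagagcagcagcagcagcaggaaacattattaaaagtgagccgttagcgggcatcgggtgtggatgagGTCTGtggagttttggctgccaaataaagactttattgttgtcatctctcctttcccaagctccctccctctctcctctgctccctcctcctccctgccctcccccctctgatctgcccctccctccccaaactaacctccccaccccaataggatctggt
Fmod (chr1:134037004-134037253, plus strand): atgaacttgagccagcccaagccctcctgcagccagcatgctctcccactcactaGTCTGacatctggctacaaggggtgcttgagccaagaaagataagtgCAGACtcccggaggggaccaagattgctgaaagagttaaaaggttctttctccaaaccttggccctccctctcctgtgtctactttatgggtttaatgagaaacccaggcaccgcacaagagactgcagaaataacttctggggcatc
The 5 motifs searched on both strands were TATAAA (the TATA box), CAGAC (the Smad box), TGANTCA (the AP-1 site), GGAATG (the TEAD site) and the CArG box by name. The windows of both chromosome 13 genes held TATAAA, 207 to 202 and 178 to 173 bases before the start for Aspn. In Ogn the matches lay 229 to 224 and 227 to 222 bases before the start and overlap each other, and Ogn also held GGAATG 86 to 81 bases before it. The windows of both chromosome 1 genes held CAGAC, once in Prelp (161 to 157 bases before the start) and at 2 places in Fmod (195 to 191 and 148 to 144 bases before it). Among 32851 promoter windows of the same length, TATAAA was found in 12.4%, CAGAC in 42.2%, TGANTCA in 6.75%, GGAATG in 12.6% and the CArG box in 1.47%. No searched motif was matched in the Bgn or Podn windows. A match is one of sequence alone, and whether any matched site acts in these cells was not tested. Promoter entries were found for 6 of the 8 members, and Lum and Dcn have none in the table used.

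Levels are given as counts per 1000000 UMIs (CPM), summed over the nuclei of a class in 1 library. Free RNA can give UMIs in nuclei that do not express a gene, so each level is set beside the level in T or NK-like nuclei of the same library, a lymphocyte class that is not a known source of these proteoglycans. That class held 583, 452, 382 and 365 nuclei, with all 8 T or NK markers detected in every library and a median depth of 1432, 895, 778 and 1143 UMIs. Median depth of the fibroblast-like nuclei was 1687, 981, 789 and 1397 UMIs. T or NK-like nuclei were not the lowest class. Macrophage-like nuclei lay below them for 4, 0, 2 and 2 of the 8 members, and above for 0. A level not told apart from T or NK-like nuclei may therefore still exceed that of another class. A gene was called higher or lower in a comparison when its CPM ratio was at least 2 in that direction and the library with the higher level had at least 50 counts. In fibroblast-like nuclei this rule called 5.52% of 9594 genes in high_fat against untreated, 4.27% of 6996 in MTZ_after against high_fat and 3.56% of 8804 in MTZ_simultaneous against high_fat. Of the members, 3 were called in the first comparison (Lum higher, Ogn and Prelp lower), 1 in the second (Prelp higher) and 5 in the third (Ogn, Prelp, Aspn and Podn higher, Lum lower). Bgn and Dcn were called in none of the 3, and Fmod had too few counts to be called. The calls of Lum and Prelp involve high_fat, where these 2 genes were not told apart from T or NK-like nuclei, as described below.

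**Figure D1:**
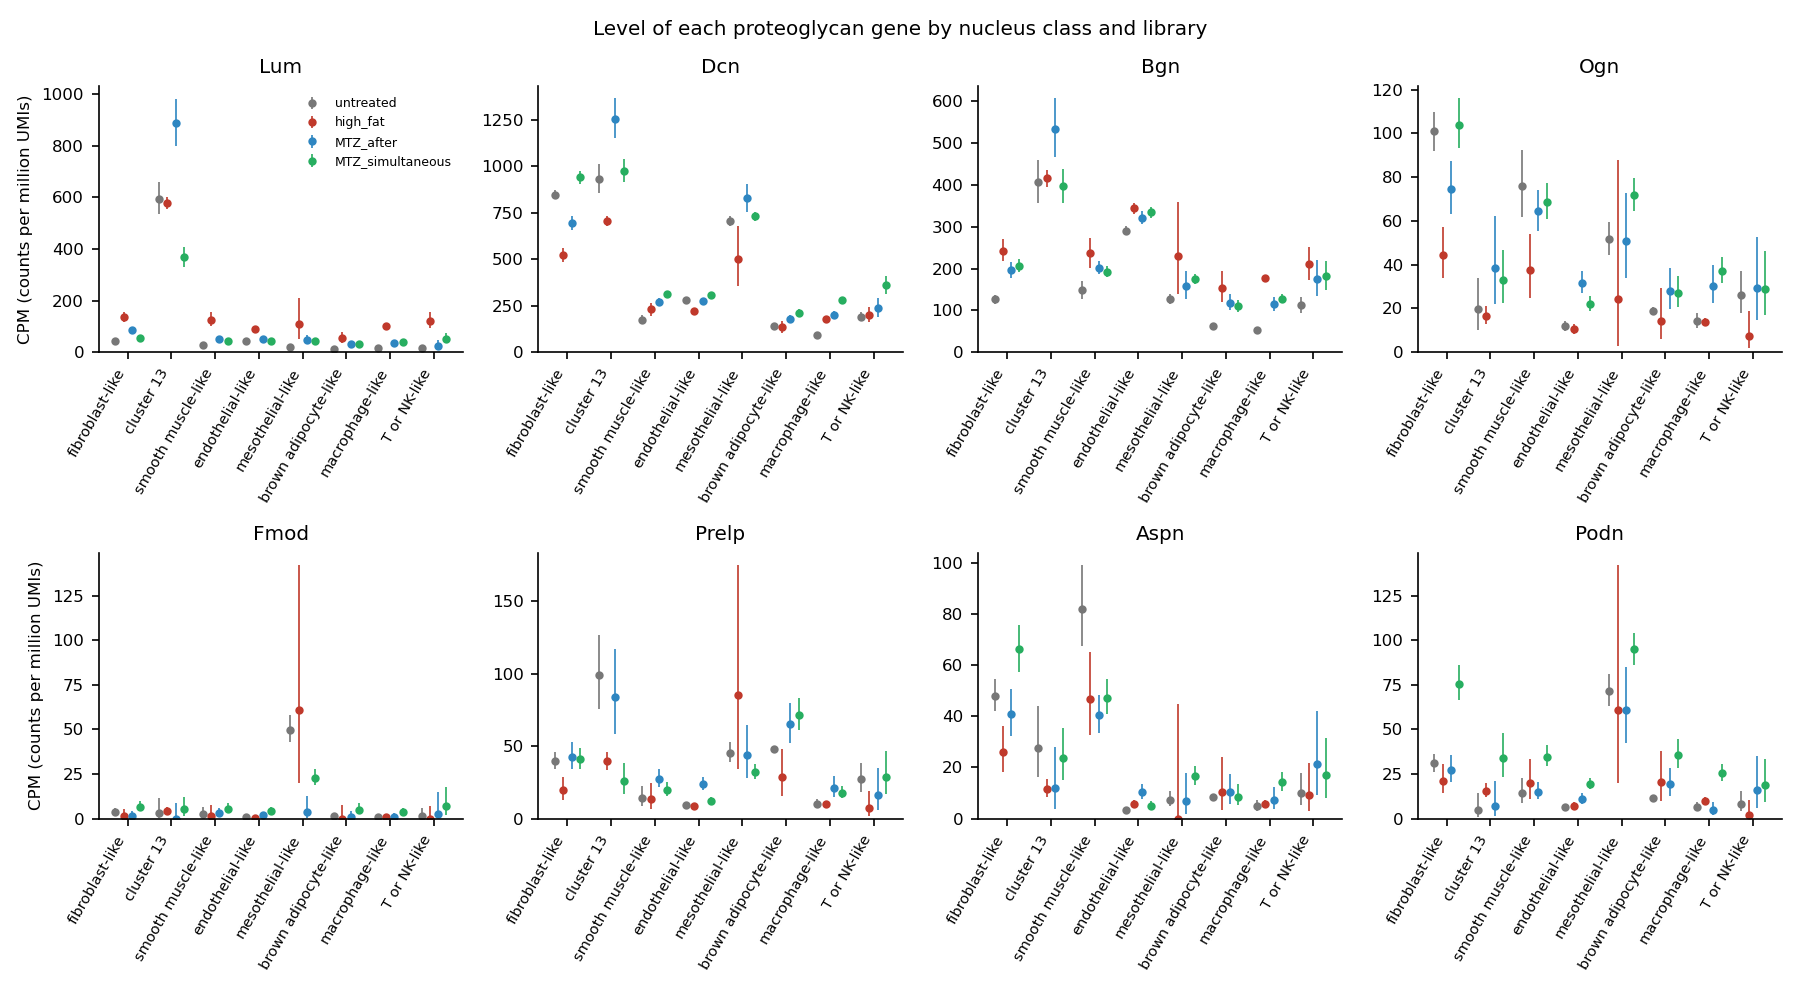
Level of each gene (CPM, vertical axis, one scale per gene) in 8 nucleus classes of the 4 libraries (points) with exact 95% Poisson intervals for counting error (bars). Lum stands highest in the Cemip-led cluster (cluster 13) of every library, at 368 to 888 CPM, and Fmod in mesothelial-like nuclei of untreated and MTZ_simultaneous, at 49.9 and 23.0 CPM.

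Class I members come first. Dcn encodes decorin, which coats collagen fibrils and binds TGF-beta. Its level in fibroblast-like nuclei was 846, 522, 694 and 939 CPM, from 4174, 718, 1394 and 2979 counts, so high_fat was lowest and MTZ_simultaneous highest. The ratio of high_fat to untreated was 0.617 (0.569 to 0.668), that of MTZ_after to high_fat 1.33 (1.21 to 1.46) and that of MTZ_simultaneous to high_fat 1.80 (1.66 to 1.95). None of these reached a ratio of 2. In T or NK-like nuclei Dcn stood at 189, 199, 238 and 358 CPM. Fibroblast-like nuclei were above them in every library, by 4.48, 2.63, 2.92 and 2.62 times, with each interval above 1. The T or NK-like ratio of MTZ_simultaneous to high_fat was also 1.80, whereas that of high_fat to untreated was 1.05. The share of nuclei with a Dcn UMI was 62.3%, 39.6%, 44.8% and 66.3% in the fibroblast-like class and 26.4%, 19.9%, 19.1% and 37.5% in the T or NK-like class. After each nucleus was thinned to 500 UMIs, these shares became 28.1%, 20.3%, 27.8% and 34.5%, and 10.8%, 9.29%, 9.95% and 20%. Mesothelial-like nuclei also held much Dcn, at 703, 498, 827 and 729.5 CPM, the high_fat value resting on 41 counts.

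Bgn encodes biglycan, a near relative of decorin that carries a pair of dermatan or chondroitin sulfate chains and can signal through Toll-like receptors. In fibroblast-like nuclei it stood at 126, 243, 196 and 207 CPM, lowest in untreated. The T or NK-like values were 112, 210.0, 174 and 181 CPM. The interval of the ratio between the classes spanned 1 in all 4 libraries, so fibroblast-like Bgn could not be told apart from that class. The ratio of high_fat to untreated was 1.93 (1.68 to 2.21) in fibroblast-like nuclei and 1.87 in T or NK-like nuclei. Bgn was called higher in high_fat in 5 of the 9 classes that held 200 nuclei or more in each of the 4 libraries, and its interval lay above 1 in all 9. Over these 9 classes together the rule called 5.30% of the tested gene and class pairs higher in that comparison, and the share of genes called in either direction ran from 4.43% in monocyte or dendritic-like to 16.5% in B cell-like nuclei. The classes that did exceed T or NK-like nuclei in every library were endothelial-like nuclei, at 291, 344, 321 and 335 CPM (1.64 to 2.59 times the background), and the Cemip-led cluster, at 407, 416, 534 and 397 CPM (1.98 to 3.63 times). In both, the libraries lay close together. The endothelial-like ratio of high_fat to untreated was 1.18 (1.12 to 1.25), and that of the Cemip-led cluster 1.02 (0.894 to 1.17). Endothelial-like nuclei gave 37.3%, 24.3%, 28.1% and 33.8% of all Bgn counts.

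Aspn encodes asporin, a member without a glycosaminoglycan chain that competes with decorin for collagen and binds TGF-beta. Fibroblast-like levels were 48.0, 26.2, 40.8 and 66.2 CPM, from 237, 36, 82 and 210 counts. T or NK-like levels were 10.1, 9.29, 21.4 and 17.1 CPM, and fibroblast-like nuclei were above them in every library but MTZ_after, where the ratio was 1.91 (0.924 to 4.57). The ratio of MTZ_simultaneous to high_fat was 2.53 (1.77 to 3.71) and was called higher, while that of high_fat to untreated was 0.545 (0.373 to 0.776). Smooth muscle-like nuclei were the other main class, at 82.1, 46.8, 40.4 and 47.3 CPM. There the untreated library stood apart, and the ratio of MTZ_simultaneous to high_fat was 1.01 (0.70 to 1.49), against 2.53 in fibroblast-like nuclei. With Leiden clustering at resolution 2, a pericyte-like cluster of 48 nuclei appeared, of which 42 came from untreated and none from high_fat. Of the 48, 44 belonged to the smooth muscle-like class described above, so its untreated level includes such nuclei. Their part in the higher untreated level of that class was not tested. Aspn reached 478 CPM (358 to 626) in those 42 nuclei, and 57.1% of them had an Aspn UMI. Dcn stood at 199 CPM in the same nuclei, near its T or NK-like level of 189.

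Lum, Fmod and Prelp are the class II members, which carry keratan sulfate or none. Lum encodes lumican, which binds fibrillar collagen and keeps fibrils narrow. In fibroblast-like nuclei Lum stood at 42.4, 135, 84.6 and 55.5 CPM, from 209, 185, 170 and 176 counts, highest in high_fat. The ratio of high_fat to untreated was 3.18 (2.59 to 3.89), that of MTZ_after to high_fat 0.629 (0.507 to 0.778) and that of MTZ_simultaneous to high_fat 0.412 (0.333 to 0.510). T or NK-like nuclei moved the same way, at 14.3, 121, 24.0 and 51.2 CPM. Fibroblast-like Lum was above that level in untreated (2.96 times, 1.80 to 5.18) and MTZ_after (3.52 times, 1.81 to 7.82). It was not told apart from it in high_fat (1.11 times, 0.835 to 1.5) or MTZ_simultaneous (1.08 times, 0.733 to 1.65). With 65 and 30 T or NK-like counts in these 2 libraries, the comparison does not show whether fibroblast-like nuclei expressed Lum above background. No difference in fibroblast-like expression is therefore read from the ratios.

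Lum was above untreated in high_fat in each of the 9 classes counted for Bgn. It was called higher in high_fat against untreated in 8 of 9, with ratios from 2.18 in endothelial-like to 8.44 in T or NK-like nuclei, and the interval lay above 1 in each. It was called lower in MTZ_simultaneous against high_fat in 8 of 9, with ratios from 0.316 to 0.552. In MTZ_after against high_fat it was called lower in 4 of 9, with ratios from 0.199 to 0.747. Of all tested gene and class pairs, 1.49% were called lower in MTZ_simultaneous and 1.65% in MTZ_after against high_fat. Over all kept nuclei Lum stood at 27.2, 157, 67.4 and 51.5 CPM, and the ratio of high_fat to untreated was 5.76 (5.47 to 6.08). For that sum 13.8% of genes were called.

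Lumican's gene was highest in the Cemip-led cluster in every library, among the 8 classes plotted by level. Its levels there were 595, 578, 888 and 368 CPM, which were 41.6, 4.78, 36.9 and 7.19 times the T or NK-like level. The ratio of high_fat to untreated within it was 0.971 (0.869 to 1.09), beside the 2.18 to 8.44 of the 9 classes above, and that of MTZ_simultaneous to high_fat 0.637 (0.568 to 0.713). The share of its nuclei with a Lum UMI was 33.6%, 41.3%, 45.6% and 28.9%, against 2.92%, 12.8%, 2.36% and 7.67% of T or NK-like nuclei, and after thinning 8.20%, 20.9%, 27% and 9.34%. This cluster was named from its leading genes, among which Lum stands although it was not used for clustering, so its high level is a description. The number of its nuclei also differed between libraries, with 122 in untreated and 2131 in high_fat, which gave 367 and 2227 Lum counts, 20.9% and 30.8% of all Lum counts. Its size depended on the clustering. Over 6 other settings it held 65 to 255 nuclei in untreated and 380 to 3546 in high_fat, with Lum at 367 to 764 and at 371 to 1449.8 CPM. The near-equal level in these 2 libraries depended on the setting as well. High_fat stood above untreated with the stricter filter on nuclei (1449.8 against 764 CPM), with no doublets removed (1166 against 473 CPM) and with each library centred (660.0 against 410.3 CPM), and below it with the family genes left in the clustering (415 against 543 CPM). Cluster 0 held a further 25.3% of the Lum counts of high_fat, at 183 CPM. Counted together with the Cemip-led cluster, fibroblast-like nuclei gave a Lum ratio of 4.44 (4.06 to 4.87) for high_fat against untreated, 0.483 (0.439 to 0.531) for MTZ_after against high_fat and 0.279 (0.254 to 0.307) for MTZ_simultaneous against high_fat. In that joint set 12.2%, 6.04% and 6.16% of genes were called. The members called there were Lum and Bgn higher and Ogn and Aspn lower in high_fat against untreated, Ogn and Aspn higher and Lum lower in MTZ_after, and Ogn, Aspn and Podn higher and Lum lower in MTZ_simultaneous.

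Because Lum and Dcn are neighbours and both code for fibril-binding proteins, Lum counts were set against Dcn counts within each class. This quotient depends on the length and capture of both genes, so only its differences between libraries and classes are read. In fibroblast-like nuclei there were 5.01 Lum counts per 100 Dcn counts in untreated (4.34 to 5.75), 25.8 in high_fat (21.8 to 30.3), 12.2 in MTZ_after (10.3 to 14.3) and 5.91 in MTZ_simultaneous (5.05 to 6.88). The intervals of untreated and MTZ_simultaneous overlap, and high_fat and MTZ_after each stand apart. The Cemip-led cluster had 63.8, 82.0, 70.8 and 37.8, the highest value of the 8 classes compared in each library. T or NK-like nuclei had 7.59, 60.7, 10.1 and 14.3, and their high_fat interval (43.9 to 83.4, from 65 Lum counts) reaches that of the Cemip-led cluster. Over the other clustering settings the quotient of the Cemip-led cluster ranged from 39.8 to 49.3 in MTZ_simultaneous and from 74.0 to 94.3 in high_fat, without overlap.

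**Figure D2:**
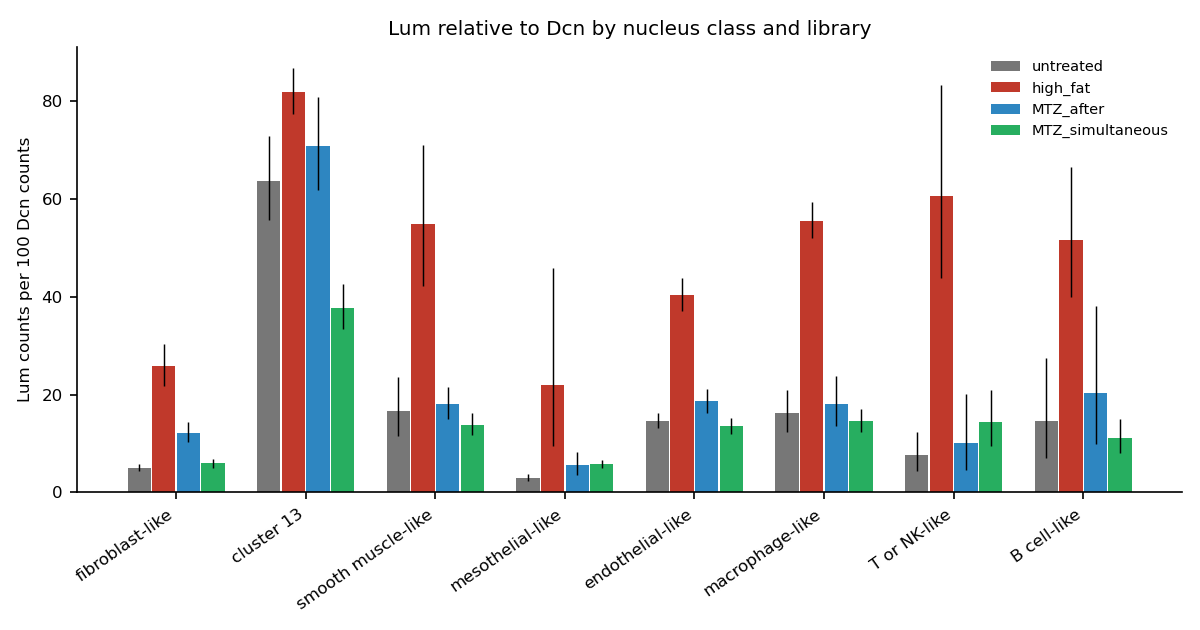
Lum counts per 100 Dcn counts (vertical axis) in 8 nucleus classes, with the 4 libraries as bars and lines for exact 95% intervals for counting error. The high_fat bar is the highest in every class, with 25.8 in fibroblast-like and 60.7 in T or NK-like nuclei, and the Cemip-led cluster (cluster 13) has the highest value in each library.

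Fmod encodes fibromodulin, a keratan sulfate proteoglycan of tendon and cartilage that shares a collagen site with lumican. It was scarce in fibroblast-like nuclei, with 19, 2, 3 and 21 counts (3.85, 1.45, 1.49 and 6.62 CPM). No class with 200 nuclei in every library reached 50 counts, so Fmod could not be called. Mesothelial-like nuclei, which line the body cavities, stood out instead. They held Fmod at 49.9 CPM in untreated (178 counts) and 23.0 in MTZ_simultaneous (112 counts), 29.6 (8.07 to 246) and 3.37 (1.28 to 12.6) times the T or NK-like level. Their 5 counts in high_fat and 2 in MTZ_after gave 60.7 (19.7 to 142) and 3.49 (0.423 to 12.6) CPM. The class supplied 61.4% of all Fmod counts in untreated and 41.3% in MTZ_simultaneous. Over all nuclei Fmod was called lower in high_fat against untreated (4.49 and 1.54 CPM, ratio 0.344, 0.261 to 0.447) and higher in MTZ_simultaneous against high_fat (7.60 CPM, ratio 4.92, 3.78 to 6.49, with 10.4% of all genes called). The number of mesothelial-like nuclei, 1237, 69, 547 and 2819, moves with these totals, and its part in them was not tested.

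Prelp encodes prolargin, which bears a basic end that binds heparan sulfate and anchors basement membranes to collagen. Fibroblast-like levels were 39.7, 19.6, 42.8 and 41.3 CPM, from 196, 27, 86 and 131 counts, so high_fat alone was low. The ratio of high_fat to untreated was 0.494 (0.318 to 0.741), and those of MTZ_after and MTZ_simultaneous to high_fat were 2.18 (1.40 to 3.49) and 2.10 (1.38 to 3.31). T or NK-like levels were 27, 7.43, 16.0 and 29.0 CPM, also lowest in high_fat. Fibroblast-like nuclei were above them in untreated (1.47 times, 1.01 to 2.21) and MTZ_after (2.67 times, 1.18 to 7.47), and not told apart in the other 2 libraries. In high_fat the levels were 19.6 and 7.43 CPM, and the T or NK-like counts were too few to tell them apart. All 3 ratios involve high_fat, so no difference in fibroblast-like expression is read from them. With the Cemip-led cluster counted in, the 3 ratios were 0.739 (0.607 to 0.898), 1.46 (1.15 to 1.84) and 1.10 (0.882 to 1.37), and Prelp was called in none of the comparisons. Brown adipocyte-like nuclei stood above T or NK-like nuclei in all 4 libraries, at 47.7, 28.7, 65.0 and 71.5 CPM, and supplied 62.1% of the Prelp counts of untreated. Lymphatic endothelial-like nuclei did so too, at 56.3, 52.3, 74.0 and 59.1 CPM, the high_fat value resting on 6 counts. Prelp was called higher in MTZ_after against high_fat in 5 of the 6 classes with at least 50 counts, with ratios from 2.05 to 2.93 in the 6, where 2.86% of tested pairs over the 9 classes were called higher.

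Ogn, the class III member, encodes osteoglycin (mimecan), a small protein with keratan sulfate chains that modulates collagen fibril assembly. Fibroblast-like levels were 101, 44.4, 74.6 and 104 CPM, from 496, 61, 150 and 331 counts. High_fat was lowest, MTZ_after lay between, and untreated and MTZ_simultaneous did not differ beyond their counting intervals (91.9 to 109.8 and 93.4 to 116). The ratio of high_fat to untreated was 0.441 (0.332 to 0.576), called lower. That of MTZ_after to high_fat was 1.68 (1.24 to 2.30), not called, and that of MTZ_simultaneous to high_fat was 2.35 (1.78 to 3.14), called higher. Fibroblast-like nuclei exceeded T or NK-like nuclei in every library, by 3.85, 5.97, 2.54 and 3.60 times. T or NK-like levels were 26.1, 7.43, 29.4 and 29.0 CPM, with 4 counts in high_fat, and so were low in the same library. Smooth muscle-like nuclei also exceeded this background in every library, at 76.0, 37.5, 64.3 and 68.7 CPM, with a ratio of high_fat to untreated of 0.493 (0.312 to 0.756). In the Cemip-led cluster Ogn was 19.5, 16.6, 38.3 and 33.0 CPM and could not be told apart from T or NK-like nuclei in any library.

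Podn encodes podocan, a class V member that binds collagen and is known to restrain smooth muscle growth. Fibroblast-like levels were 31.0, 21.1, 27.4 and 75.6 CPM, from 153, 29, 55 and 240 counts. MTZ_simultaneous stood apart from the other 3, whose intervals overlap. Its ratio to high_fat was 3.59 (2.43 to 5.47), the highest among the members called, whereas high_fat to untreated gave 0.680 (0.441 to 1.02) and MTZ_after to high_fat 1.30 (0.813 to 2.11). T or NK-like levels were 8.42, 1.86, 16.0 and 18.8 CPM, the high_fat value being 1 count. Fibroblast-like nuclei were above them in untreated (3.68 times, 1.95 to 7.83), high_fat (11.3 times, 1.88 to 463) and MTZ_simultaneous (4.03 times, 2.21 to 8.18), and not told apart in MTZ_after (1.71 times, 0.736 to 4.85). The T or NK-like ratio of MTZ_simultaneous to high_fat was 10.1 (1.47 to 435), from 11 and 1 counts. Podn was called higher in MTZ_simultaneous against high_fat in 3 of the 6 classes with at least 50 counts, with ratios from 1.73 to 3.59, where 2.93% of tested pairs over the 9 classes were called higher. Mesothelial-like nuclei, at 71.4, 60.7, 61.1 and 94.8 CPM, and adipocyte-like nuclei, at 50.8, 30.7, 42.1 and 56.7 CPM, exceeded T or NK-like nuclei in all 4 libraries.

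**Figure D3:**
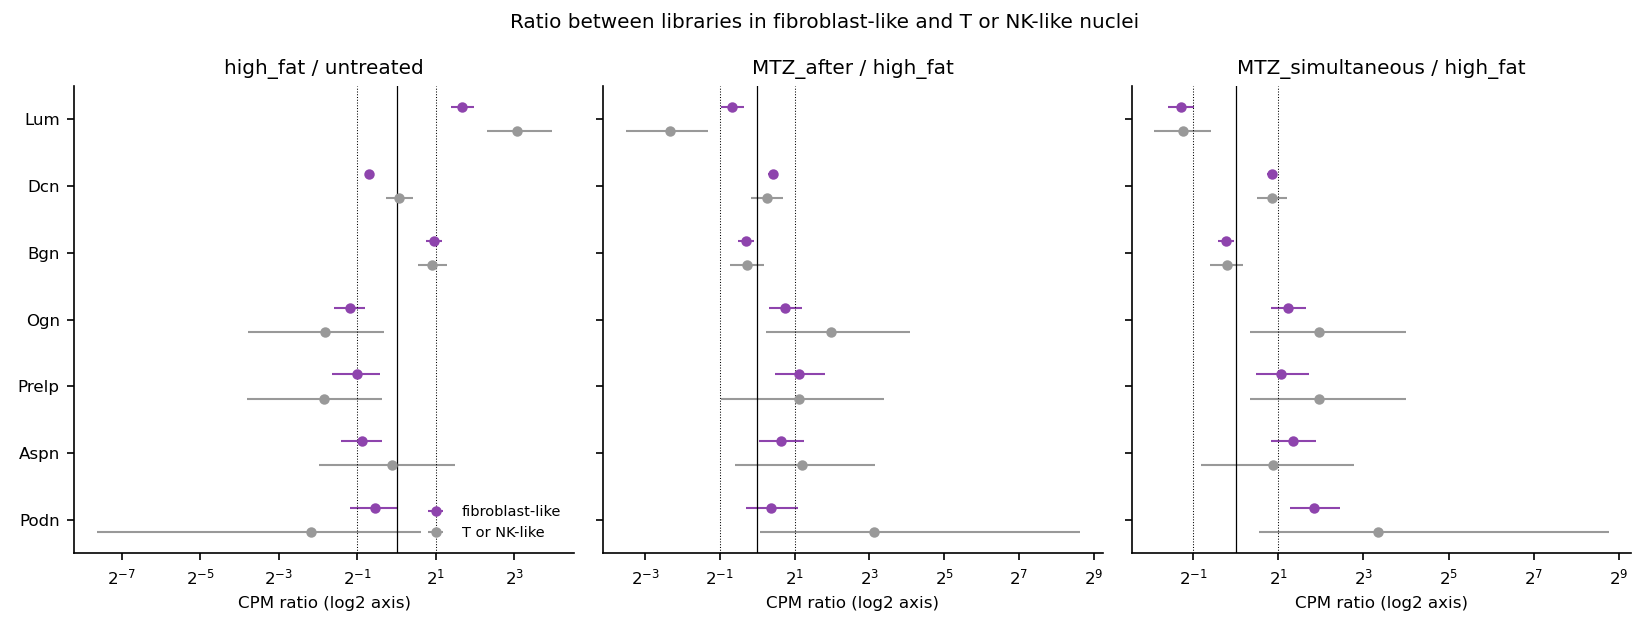
CPM ratio between libraries (horizontal axis, log2 scale) for 7 of the genes in fibroblast-like (purple) and T or NK-like (grey) nuclei. Bars are exact 95% intervals, solid lines mark 1 and dotted lines a 2-fold difference. The grey points lie on the same side of 1 as the purple ones in all 3 comparisons for every gene shown but Dcn, whose ratios of high_fat to untreated are 1.05 and 0.617. Grey points of Aspn and Podn rest on 12 counts or fewer per library. Those of Ogn and Prelp also rest on few counts in high_fat, which enters all 3 comparisons. Fmod is left out for its few counts.

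The member ratios did not share 1 pattern. In fibroblast-like nuclei of high_fat against untreated, Lum and Bgn had ratios above 1 and the other 6 below it. In both MTZ libraries against high_fat, Lum and Bgn had ratios below 1 and the other 6 above it. All 3 comparisons contain the same high_fat library, so these directions are not independent of each other. Lum in high_fat and MTZ_simultaneous, and Bgn in every library, were not told apart from T or NK-like nuclei. Fmod had 2 counts in high_fat and 3 in MTZ_after. No split between members in fibroblast-like expression is therefore read from these directions. The 8 members, Fmod included, had a median log2 ratio of -0.77 in high_fat against untreated, against 0.06 over all 9594 tested genes. In MTZ_after against high_fat it was 0.38 against -0.01, and in MTZ_simultaneous against high_fat 1.13 against 0.03. Summed markers of other classes in the same nuclei also differed between libraries. The 9 smooth muscle markers summed to 291, 526, 871 and 839.8 CPM, the 11 macrophage markers to 205, 563, 377 and 356 CPM, the 7 mesothelial markers to 105, 26.9, 149.8 and 240.4 CPM, and the 11 fibroblast markers to 6954, 4226, 4493 and 5269 CPM. The 7 brown adipocyte markers summed to 389, 175, 384 and 254 CPM, lowest in high_fat as Prelp was, and the 9 endothelial markers to 1997, 2628, 3172 and 2462 CPM. Every marker of these lists was detected in each library except Krt19, a mesothelial marker at 0 in high_fat, and Elovl3, a brown adipocyte marker at 0 in high_fat and MTZ_simultaneous. The 6 adrenal cortex markers summed to 129 CPM in MTZ_after, where all were detected, and to 3.65, 3.64 and 11 CPM in untreated, high_fat and MTZ_simultaneous, with Hsd3b1, Cyp11b1, Cyp21a1 and Nr5a1 at 0 in these 3. The fibroblast markers were lowest in high_fat, as were Dcn, Ogn, Aspn, Prelp and Podn. The part of these differences in the member ratios was not tested. A change in the make-up of the class and a change in RNA per nucleus cannot be told apart here. In the Cemip-led cluster the 11 fibroblast markers summed to 8386, 5634, 8115 and 6221 CPM, above the fibroblast-like sum in every library.

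**Figure D4:**
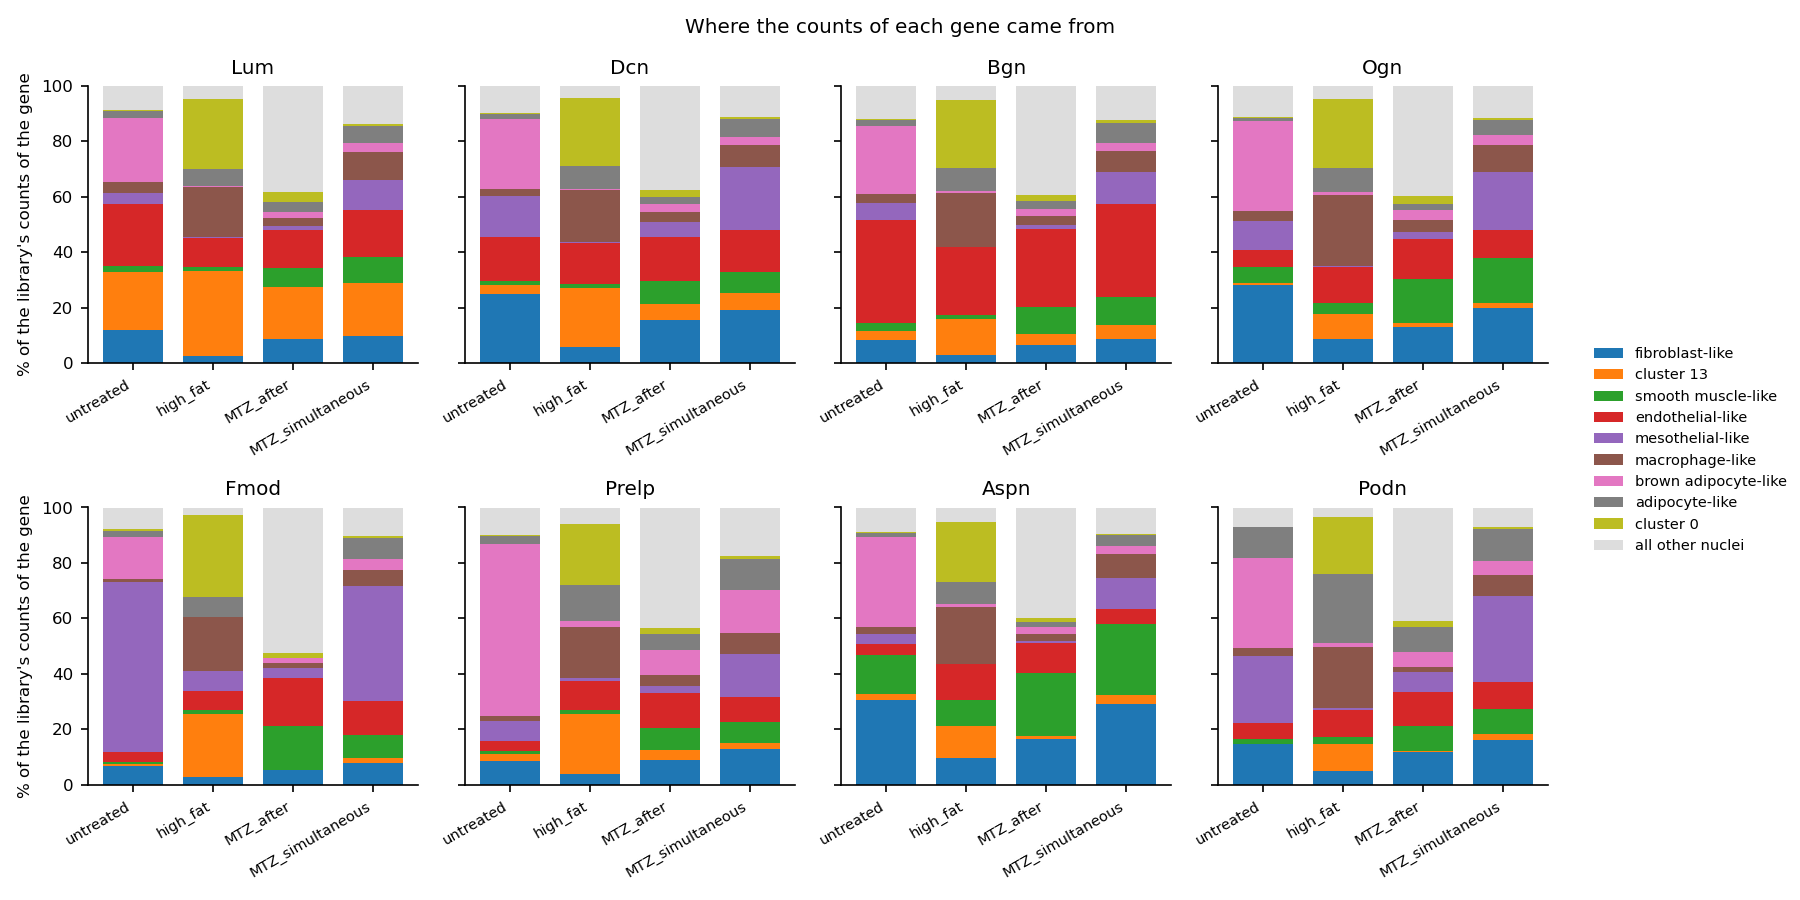
Percent of each gene's counts (vertical axis) that came from each nucleus class in the 4 libraries, over kept nuclei. The Cemip-led cluster (cluster 13) and cluster 0 make up 30.8% and 25.3% of Lum counts in high_fat, and mesothelial-like nuclei 61.4% of Fmod counts in untreated.

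Co-detection within nuclei was limited by depth. After thinning to 500 UMIs, 38.9%, 39.6%, 41.4% and 49.5% of fibroblast-like nuclei had at least 1 member, and 5.21%, 6.20%, 8.57% and 10.8% at least 2. In the Cemip-led cluster the latter shares were 7.38%, 16.3%, 23.6% and 10.2%, and in T or NK-like nuclei 1.37%, 2.65%, 3.14% and 4.93%.

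Across 78 sums of a cluster in a library, which share library, depth and free RNA, each member was matched with the genes whose log2(CPM + 1) was most alike. For Lum these were Col1a1 (r = 0.82), Col1a2 and Thbs1 (both 0.78). For Dcn they were Aebp1 (0.88), Nbl1 and Gli3 (both 0.82), and for Bgn Clu, Col5a2 (both 0.92) and Sparc (0.88). For Aspn they were Abcc9 (0.78), Postn and Vasn (both 0.75), and for Ogn Gas1 (0.76), Clec3b and Gsn (both 0.75). Fmod was nearest to 2010001K21Rik (0.70), Cgn and the mesothelial gene Msln (both 0.69). Prelp was nearest to Aasdh (0.65), Mmp23 and Lekr1 (both 0.62), and Podn to Aldh1a1 (0.67), Etfbkmt and C3 (both 0.66). Among the members, Lum and Bgn were most alike (0.72), followed by Dcn and Bgn (0.61) and by the neighbours Aspn and Ogn (0.59). Lum and Dcn gave 0.52, and Lum gave -0.08 with Ogn and 0.01 with Prelp. These values describe the sums and carry no test.

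The other genes of the family were scarce in fibroblast-like nuclei. Of 10, only Ecm2, next to Aspn on chromosome 13, reached 50 counts there, at 66.3, 47.3, 62.7 and 59.2 CPM, and it was called in no comparison. Omd, which lies between Aspn and Ogn, had 26, 7, 17 and 25 counts, and Tsku, a secreted class IV member, 36, 15, 19 and 26.

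For the enzymes that build the sugar chains, the counts are read beside the 5.52%, 4.27% and 3.56% of all genes called. In fibroblast-like nuclei, 16, 12 and 13 of 22 genes for chondroitin and dermatan sulfate chains were tested in the 3 comparisons, with median log2 ratios of 0.05, -0.04 and -0.07, beside 0.06, -0.01 and 0.03 over all tested genes. Of these 0, 2 and 1 were called. Csgalnact1, which starts the chondroitin chain, was called higher in MTZ_after (173 against 75.6 CPM, ratio 2.29, 1.83 to 2.88) and in MTZ_simultaneous (161 CPM, ratio 2.13, 1.72 to 2.66) against high_fat. B3gat3, which completes the linker to the core protein, was called lower in MTZ_after (26.4 against 54.5 CPM, ratio 0.483, 0.334 to 0.696). Of 8 keratan sulfate genes, 4, 3 and 4 were tested and 1 was called, the sulfotransferase Chst1, higher in MTZ_simultaneous against high_fat (21.7 against 8.73 CPM, ratio 2.49, 1.34 to 5.05). The medians of the keratan sulfate genes were -0.14, 0.11 and -0.16.

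The counts for collagen partners lay near those shares of all genes. Of 20 genes for fibrillar collagens, their partners and cross-linking enzymes, 20, 18 and 20 were tested and 1, 0 and 1 called, and their median log2 ratios were -0.25, -0.17 and 0.06. Dpt, which encodes the decorin-binding dermatopontin, was called lower in high_fat against untreated (69.1 against 159.5 CPM, ratio 0.433, 0.346 to 0.536). Lox, the collagen cross-linking oxidase, was called lower in MTZ_simultaneous against high_fat (34.0 against 70.5 CPM, ratio 0.482, 0.363 to 0.641). The other 18 were not called in any comparison.

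Among 13 proteases that process these proteoglycans, 8 were tested in each comparison, with median log2 ratios of -0.10, -0.24 and 0.05. Adamts1 was called lower in high_fat against untreated (60.4 against 155 CPM, ratio 0.390, 0.307 to 0.489). Tll1, which trims procollagen and biglycan precursors, was called higher in MTZ_after (89.1 against 42.9 CPM, ratio 2.08, 1.54 to 2.84), and Mmp3, which cleaves decorin, lower in MTZ_simultaneous (37.2 against 99.6 CPM, ratio 0.373, 0.289 to 0.481) against high_fat. Of 22 receptors and growth factors, 19, 18 and 19 were tested and 3, 1 and 1 called, with medians of -0.03, -0.06 and 0.06. Cd44, the hyaluronan receptor, was higher in high_fat against untreated (255 against 122 CPM, ratio 2.10, 1.83 to 2.39). Egfr, to which decorin binds, was lower (443 against 946 CPM, ratio 0.468, 0.430 to 0.510), and so was Tgfb3 (5.09 against 13 CPM, ratio 0.392, 0.152 to 0.856). Tgfb3 was higher in MTZ_simultaneous against high_fat (16.1 against 5.09 CPM, ratio 3.16, 1.43 to 8.25), with 7 counts in high_fat. Kdr, a VEGF receptor, was the gene called in MTZ_after against high_fat (42.3 against 17.5 CPM, ratio 2.42, 1.53 to 3.99).

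Of 17 other proteoglycans, 12, 11 and 13 were tested, and 3, 0 and 1 were called, with median log2 ratios of 0.11, 0.24 and 0.03. The cell-surface glypican Gpc3 was called lower in high_fat against untreated (111 against 372 CPM, ratio 0.299, 0.252 to 0.353) and higher in MTZ_simultaneous against high_fat (349 CPM, ratio 3.14, 2.65 to 3.74). The syndecans parted in high_fat against untreated, Sdc3 being higher (71.3 against 21.5 CPM, ratio 3.32, 2.49 to 4.41) and Sdc2 lower (200 against 429 CPM, ratio 0.466, 0.410 to 0.529). Genes of modulated smooth muscle and cartilage-type cells were led by Spp1, which encodes osteopontin and stood at 407, 1979, 672 and 651 CPM in fibroblast-like nuclei. Of the 13 in that list, 3 of 9 tested were called higher in high_fat against untreated, namely Spp1 (ratio 4.87), Thbs1 (3.61) and Lgals3 (3.17). In MTZ_after against high_fat 2 of 7 were called lower, Spp1 (0.339) and Lgals3 (0.446), and in MTZ_simultaneous 1 of 8, Spp1 (0.329). The list's median log2 ratios were 0.70, -0.31 and -0.39. Of 9 contractile genes, 2 were called higher in each comparison, Tagln and Acta2 in the first (ratios 2.76 and 2.37), Mylk and Myh11 in the second (2.34 and 2.04), and Myh11 and Cnn1 in the third (2.41 and 2.71), and the medians were 0.77, 0.63 and 0.46. The part that RNA from macrophages or smooth muscle cells, whose marker sums are given above, had in these values was not tested.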

How the data were processed

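Nuclei from aortic tissue were profiled with the 10x Genomics 3' kit v3.1 and sequenced as paired 150-base reads, per the labels' protocols. The authors deposited raw UMI counts per gene and nucleus, 1 matrix per library, made with Cell Ranger 7.0.1 per the file headers. The submitters' processing notes name Cell Ranger, STAR and the build mm10. Whether intronic reads were counted is not stated in these sources. It bears on levels in nuclei. The 4 libraries held 69201159, 50358151, 31517272 and 37962370 UMIs in untreated, high_fat, MTZ_after and MTZ_simultaneous.

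From the deposited counts, nuclei with at least 300 genes and at most 10% mitochondrial counts were kept. No caller threshold was used for doublets. Instead, a cut was set at the highest 8% of Scrublet doublet scores in each library (scanpy 1.11.5), and nuclei scoring above it were removed. Scores equal to the cut were kept, so 7.02%, 7.64%, 7.45% and 7.33% were removed. That left 99730 of 107978 nuclei. Clustering used 2000 variable genes without the members and their relatives, 30 components, 20 neighbours and Leiden clustering at resolution 1 (python-igraph 0.11.9, the best of 4 starts of 30 iterations). A cluster took a class name, written with "-like", when at least 3 markers of that class were at least 2-fold enriched and detected in 5% of nuclei, with a mean log2 fold over the class's markers of at least 0.5. That last threshold and the number of starts were set after seeing the data. Rebuilt names may differ from the authors'.

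UMIs were summed per class and library and scaled to CPM over all genes. Levels carry exact Poisson intervals, shares exact Clopper-Pearson intervals and ratios exact conditional intervals, all at 95% and for counting error only. Calls needed a CPM ratio of at least 2 and 50 counts in the higher library. Log2 ratios used a pseudocount of 1 CPM. Shares of nuclei were also given after thinning to 500 UMIs, and no nucleus fell below that depth. On simulated counts of the 3 comparisons the rule called 100.0% of genes changed 4-fold and 0.493%, 0.0448% and 0.211% of unchanged genes. The simulated counts held counting error only, and the changed genes were chosen with expected counts above the 50-count minimum. These shares therefore do not measure differences between single libraries, nor the calling of members with fewer counts.

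All 8 members are named. Further family genes were named from 50 counts on, list genes as the called ones with the 2 highest and 2 lowest ratios per comparison by the interval bound nearest to 1, and like genes as the 3 with the highest correlation, among genes with at least 200 counts and outside mitochondrial, ribosomal, haemoglobin and sex-linked genes. Lgals3 in high_fat against untreated falls outside that rule and was named after its values were seen. The members and the lists were chosen with earlier results of these data known. The alternatives were TMM scaling (edgeR 4.0.16), other count minimums, filters, doublet handling, clustering settings, nucleus weights and depth. Gene positions come from GENCODE M21, in which 32158 of 32285 identifiers (99.6%) were found.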

Additional observations from a re-analysis of the deposited data

How the results depend on the processing

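Over the alternatives named above, 256 member ratios stayed within their counting interval and 8 moved further, with no direction reversed among called members. The settings that change only the count minimum leave every ratio as it was and are among the 256. The counts of members called are not part of these numbers and are given next. The count of members called in high_fat against untreated was 3 and fell to 1 with a minimum of 200 counts, where Lum was lost. It was 2 with no doublets removed, another clustering seed, equal weight of nuclei and thinning. It was 4 with TMM factors, no minimum count, resolution 2, each library centred and the family genes left in. The Ogn call there was lost with equal weight of nuclei and with thinning. In MTZ_after against high_fat it was 1, fell to 0 with a minimum of 200 counts, with another clustering seed and with nuclei thinned to 500 UMIs, and was 2 with equal weight of nuclei. In MTZ_simultaneous against high_fat the count was 5, and 6 with no minimum count. It was 3 with a minimum of 200 counts, where Lum and Prelp were lost, and 2 with thinning, where Ogn, Prelp and Aspn were lost. The Prelp calls lie close to the threshold, with ratios of 2.0 to 2.74 in MTZ_after. The call in MTZ_simultaneous was also lost with the stricter filter on nuclei, no doublets removed, another clustering seed and the family genes left in, and that in high_fat against untreated with no doublets removed, another seed, a minimum of 200 counts and thinning.

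For the members called, the ratios of high_fat to untreated ranged from 2.88 to 4.02 for Lum, 0.401 to 0.626 for Ogn and 0.392 to 0.538 for Prelp. Those of MTZ_simultaneous to high_fat ranged from 0.379 to 0.432 for Lum, 1.84 to 2.64 for Ogn, 1.90 to 3.07 for Prelp, 1.64 to 2.78 for Aspn and 3.49 to 5.02 for Podn.

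Of the alternatives chosen after seeing the data, counting the Cemip-led cluster in the class gave 3 calls in MTZ_after, of Ogn, Aspn and Lum, while Prelp was called in none of the comparisons. Subtracting the T or NK-like level gave 5 calls in high_fat against untreated and 2 in MTZ_after, and put Lum in high_fat against untreated at 0.489. That value rests on a high_fat level not told apart from the one subtracted (1.11 times, 0.835 to 1.5), has no interval, and shows no direction. The cause of these shifts was not tested. No paired analysis was possible because each group is 1 library. Depth limits Fmod most, with 2 and 3 fibroblast-like counts in high_fat and MTZ_after.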
